A study of Caenorhabditis elegans with 12 samples.

Results

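The expression of *tir-1* and *irg-4*, 2 of the 5272 genes in each per-library table, was described in whole *C. elegans* across 3 groups of 4 libraries. *tir-1* (WBGene00006575) encodes a conserved adaptor upstream of p38 immune signalling, and *irg-4* (WBGene00008584) is an infection response gene. Both were chosen by their per-library CPM in these groups, which were already known, so these levels, their fold changes and their standard errors are given as a description without a test. Tests are given only for other genes around the pathway. The groups were WT animals (strain Bristol N2) exposed to 500 µM FW1256 from the L1 larval stage onwards, unexposed *eat-2* mutants (strain DA1116) and unexposed WT animals (N2). FW1256 is a compound that slowly releases hydrogen sulfide (H2S), and *eat-2* mutants feed poorly because their pharynx pumps slowly, so they serve as a genetic model of dietary restriction. Per the study's methods, larvae were first kept in liquid medium with *E. coli* OP50-1, with or without the donor, and then moved to agar seeded with these bacteria. Each library came from a pool of whole animals at the age of day 6. The mutants are represented by 1 strain. The labels do not say whether the 4 libraries of a group came from separate cultures, so p-values measure the spread between these libraries, which may be technical.

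TIR-1 is the worm relative of the mammalian protein SARM1, and its TIR domain can cleave NAD+. In the intestine and epidermis, active TIR-1 engages a kinase cascade in which the MAP kinase kinase kinase NSY-1 acts on the MAP kinase kinase SEK-1, and SEK-1 acts on the p38 kinase PMK-1. PMK-1 then acts through transcription factors such as ATF-7 to switch on secreted effectors against pathogens, and *irg-4*, which encodes a CUB-like domain protein, is a commonly used readout of this output in the intestine. In neurons, the same cascade takes part in cell fate decisions below the calcium-dependent kinase UNC-43.

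In the WBcel235 annotation *tir-1* lies on chromosome III from 3869590 to 3901642 on the minus strand. It has 13 transcripts with 11 different starts and between 3 and 12 exons, and the only annotated gene that overlaps it is a piRNA on the opposite strand. The transcripts were summed to 1 value per gene before deposit, so a change in the use of an isoform cannot be seen in these values. *irg-4* lies on chromosome IV from 12435833 to 12438236 on the plus strand, with 1 transcript of 7 exons and no overlapping gene.

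Levels are given as CPM, the estimated count of a gene relative to the library's total, scaled to the listed genes of each library and normalized with TMM. Of the listed genes 3363 are protein-coding, where the annotation holds 19985, and 1902 are pseudogenes. Shares and ranks over all genes refer to the listed genes that were tested, and need not hold for the whole transcriptome. The totals over the listed genes were 14769332 to 19199982 estimated counts in FW1256-exposed WT, 14842320 to 19170837 in *eat-2* mutants and 15319366 to 19020724 in unexposed WT, and replicates of a group differed by more than sampling noise. Of 3616 genes tested between FW1256-exposed and unexposed WT, 50.2% were called with edgeR's quasi-likelihood test at a Benjamini-Hochberg adjusted p under 0.05. They comprised 922 higher and 895 lower genes, and with library size in place of TMM the split was 691 higher and 1055 lower. Between *eat-2* mutants and WT, 44.2% of 3786 genes were called, and between FW1256-exposed WT and *eat-2* mutants 69.3% of 3715 were, 36.2% lower and 33.1% higher in the exposed animals. With library size in place of TMM that last split was 1497 lower and 1011 higher, against 1346 lower and 1229 higher with TMM. Both comparisons with WT share the same WT libraries, so they are given side by side. In whole animals, fewer cells of a type and less RNA per cell cannot be told apart.

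*tir-1* was lowest in FW1256-exposed WT and highest in *eat-2* mutants. It had 118, 135, 141 and 195 CPM in the 4 FW1256-exposed libraries, 1517, 1148, 1311 and 1332 CPM in the 4 *eat-2* libraries, and 807, 494, 474 and 648 CPM in the 4 unexposed WT libraries. The 3 groups did not overlap at any point: the highest FW1256-exposed library lay below the lowest WT library, and the highest WT library lay below the lowest *eat-2* library. The mean levels were 147 ± 33.6 CPM in FW1256-exposed WT, 1327 ± 151 CPM in *eat-2* mutants and 606 ± 155 CPM in unexposed WT (SD, n = 4 each).

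The fitted log2 fold change of *tir-1* was -2.05 (SE 0.21) in FW1256-exposed over unexposed WT, a level 4.15-fold lower. Only 80 of the 3616 genes tested had a more negative value. In *eat-2* mutants over WT it was 1.13 (SE 0.16), a level 2.19-fold higher, with 165 of 3786 genes more positive. Between FW1256-exposed WT and *eat-2* mutants it was -3.19 (SE 0.15), which makes *tir-1* 9.11-fold lower in the exposed animals. Leaving out each library in turn gave -2.22 to -1.88, 1.03 to 1.30 and -3.35 to -3.09 for these 3 comparisons. Groups free of overlap were common among all genes: FW1256-exposed WT lay wholly below WT in 22.5% of genes tested, and *eat-2* mutants wholly above WT in 20.9%. FW1256-exposed WT lay wholly below *eat-2* mutants in 32.9% of genes and wholly above them in 32.1%.

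*irg-4*, like *tir-1*, was higher than in WT in the *eat-2* libraries. Unlike *tir-1*, *irg-4* lay above WT on average in FW1256-exposed WT, with overlap. It had 17.8, 23.3, 15.9 and 11.28 CPM in the FW1256-exposed libraries, 43.5, 69.8, 46.3 and 40.1 CPM in the *eat-2* libraries, and 10.9, 12.9, 11.34 and 7.73 CPM in the unexposed WT libraries. All 4 *eat-2* libraries lay above every library of the other groups. Over all genes, *eat-2* mutants lay wholly above WT in 20.9% and wholly above FW1256-exposed WT in 32.9%. Of the 16 pairs of an FW1256-exposed and a WT library, 14 had the exposed library higher, and the exceptions were FW1256-exposed replicate 4 against WT replicates 2 and 3. Over all genes, 25.6% had every FW1256-exposed library above every WT library. The means were 17.1 ± 4.97 CPM in FW1256-exposed WT, 49.9 ± 13.5 CPM in *eat-2* mutants and 10.7 ± 2.19 CPM in unexposed WT (SD, n = 4 each).

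The fitted log2 fold change of *irg-4* was 0.66 (SE 0.23) in FW1256-exposed over unexposed WT, or 1.58-fold, and 246 of 3616 genes had a more positive value. In *eat-2* mutants over WT it was 2.22 (SE 0.21), or 4.65-fold, and only 12 of 3786 genes were more positive. Between FW1256-exposed WT and *eat-2* mutants it was -1.57 (SE 0.23), a level 2.97-fold lower in the exposed animals. Without 1 library at a time the values ran over 0.47 to 0.82, 1.9998 to 2.33 and -1.74 to -1.37. The smallest value in the FW1256 comparison came without FW1256-exposed replicate 2, the library with the most *irg-4* of its group.

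The order of the groups therefore differed between the genes. For *tir-1* it was *eat-2* mutants, WT and FW1256-exposed WT from high to low, with no neighbours overlapping. For *irg-4* it was *eat-2* mutants, FW1256-exposed WT and WT, and the neighbours at the low end overlapped. The direction in *eat-2* mutants was shared and that in FW1256-exposed WT was not. The spread within groups was also unlike: for *irg-4*, replicate 2 was the highest and replicate 4 the lowest in every group, whereas for *tir-1* replicate 1 was the highest in *eat-2* mutants and WT and the lowest in FW1256-exposed WT.

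**Figure D1:**
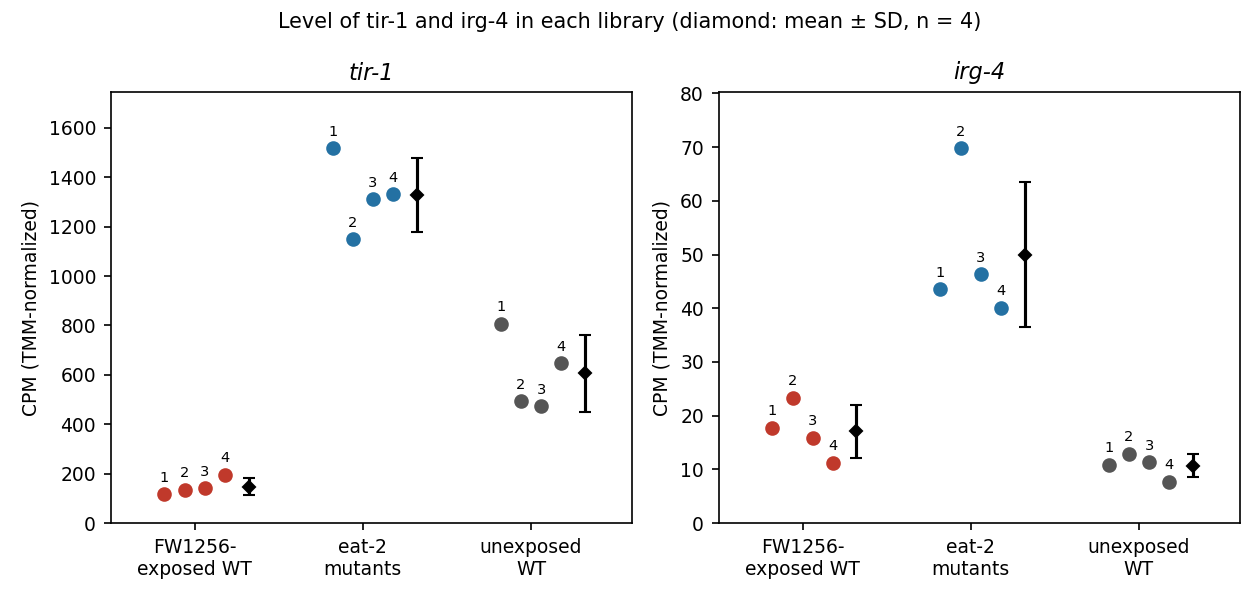
CPM (linear axis from 0, a scale for each gene) of *tir-1* and *irg-4* in each library of FW1256-exposed WT, *eat-2* mutants and unexposed WT, with a numbered point for each replicate and a diamond for the mean ± SD. The 3 groups of *tir-1* are separate, with means of 147, 1327 and 606 CPM, while for *irg-4* the *eat-2* group, with a mean of 49.9 CPM, stands above FW1256-exposed WT and WT, which overlap.

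The per-library values can be set against the mean of normalized counts that the authors deposited with their own comparisons. For *tir-1* the mean from the libraries was 6317 in the FW1256 comparison, against 15918 as the authors' mean, a share of 39.7%. The highest single library was at 13530, below the authors' mean. For *irg-4* it was 232 against 1313, a share of 17.7%, and the authors' mean again lay above the highest single library, at 389. In the *eat-2* comparison *tir-1* was at 16678 against 23339, a share of 71.5%. *irg-4* was at 523 against 1243, a share of 42.0%, with its highest single library at 1198, below the authors' mean. For *irg-4* the authors' mean was thus higher in the FW1256 comparison than in the *eat-2* comparison, while the mean from the libraries was lower. Over all genes with enough counts the median share was 100% with FW1256 and 98.6% in the *eat-2* comparison. With FW1256, 0.548% of these genes had a share at or below that of *tir-1*, and 0.0645% at or below that of *irg-4*. In the *eat-2* comparison these values were 18.5% and 10.4%. Among the 37 named genes set against the authors' means, the median share was 72.2% in the FW1256 comparison (30.7% for *clec-67* to 126% for *nlp-24*) and 95.0% in the *eat-2* comparison (6.09% for *atf-7* to 133% for *cnc-2*). Genes lower in FW1256-exposed WT were among those with gaps. With FW1256 and *eat-2* in turn, the shares were 34.1% and 103% for *eol-1*, and 46.6% and 97.3% for *cebp-1*. They were 56.2% and 96.8% for *C17H12.8*, 58.5% and 100% for *zip-2*, and 60.2% and 80.1% for *vhp-1*. For *tpa-1*, also lower, they were 81.0% and 64.9%. Gaps were also found for other named genes. The shares were 73.4% and 12.2% for *daf-16*, and 80.5% and 32.4% for *unc-43*. They were 36.4% and 94.0% for *spp-18*, 33.4% and 71.6% for *asp-12*, and 44.6% and 77.3% for *pqm-1*. The reason for these gaps is not stated in the sources used here and was not tested, and the levels and fold changes given here carry this limit.

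The kinases around TIR-1 were next examined. Of 17 listed genes of the p38 and related MAP kinase modules, 6 were in the tables and 4 had counts enough to be tested, and *nsy-1* and *pmk-1* were not analysed here. In FW1256-exposed WT, 3 of the 4 were lower than in WT and none was higher, against a background of 24.8% of all genes lower. In *eat-2* mutants 2 of the 4 were higher and none lower, against 21.8% of all genes higher. The median log2 fold change of the 4 was -0.76 for FW1256 exposure and 0.24 for *eat-2* mutants, beside -0.00 and 0.02 over all genes.

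*sek-1*, the MAP kinase kinase directly below NSY-1, had 111, 115, 118 and 113 CPM in FW1256-exposed WT, 191, 185, 194 and 197 CPM in *eat-2* mutants, and 173.98, 139, 152 and 158 CPM in WT. The 3 groups were again in the order of *tir-1* and did not overlap. Over all genes, 22.5% lay wholly below WT with FW1256 and 20.9% wholly above WT in *eat-2* mutants, and the share with both was not counted. Its log2 fold change was -0.46 (SE 0.07, edgeR adjusted p = 0.000532) in FW1256-exposed WT and 0.30 (SE 0.07, edgeR adjusted p = 0.0049) in *eat-2* mutants. *R03G5.6* overlaps *sek-1* on the opposite strand, and no source says that strand was used in counting, so reads of the pair may be mixed. *pmk-3*, a p38 kinase related to PMK-1 and known for its part in axon regeneration, averaged 42.4 ± 3.37 CPM in FW1256-exposed WT, 110 ± 9.58 CPM in *eat-2* mutants and 87.2 ± 11.7 CPM in WT (SD, n = 4 each). It fell by 1.05 on the log2 scale in FW1256-exposed WT (SE 0.10, edgeR adjusted p = 4.99e-05). Its rise of 0.34 in *eat-2* mutants (SE 0.10, edgeR adjusted p = 0.0207) was no longer called without WT replicate 3 (adjusted p = 0.0601) or without *eat-2* replicate 3 (adjusted p = 0.0546), and the groups overlapped.

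*vhp-1*, a phosphatase that switches off p38 and JNK-type kinases, had 95.2, 104.3, 90.0 and 103.6 CPM in FW1256-exposed WT, 319, 274, 308 and 294 CPM in *eat-2* mutants, and 316, 218, 263 and 265 CPM in WT. It fell in FW1256-exposed WT, as *sek-1* and *pmk-3* did, by 1.45 on the log2 scale (SE 0.11, edgeR adjusted p = 1.01e-05). In *eat-2* mutants the value was 0.17 (edgeR adjusted p = 0.191), and it passed only without WT replicate 1 (adjusted p = 0.0317) or with the replicate number as a block (adjusted p = 0.0306). *jnk-1*, a JNK-type kinase, was at low counts and had log2 fold changes of 1.05 (SE 0.73, edgeR adjusted p = 0.257) in FW1256-exposed WT and -0.00 (SE 0.83, edgeR adjusted p = 0.998) in *eat-2* mutants. *dlk-1* and *mek-1*, kinases of parallel modules, had too few counts to be tested.

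**Figure D2:**
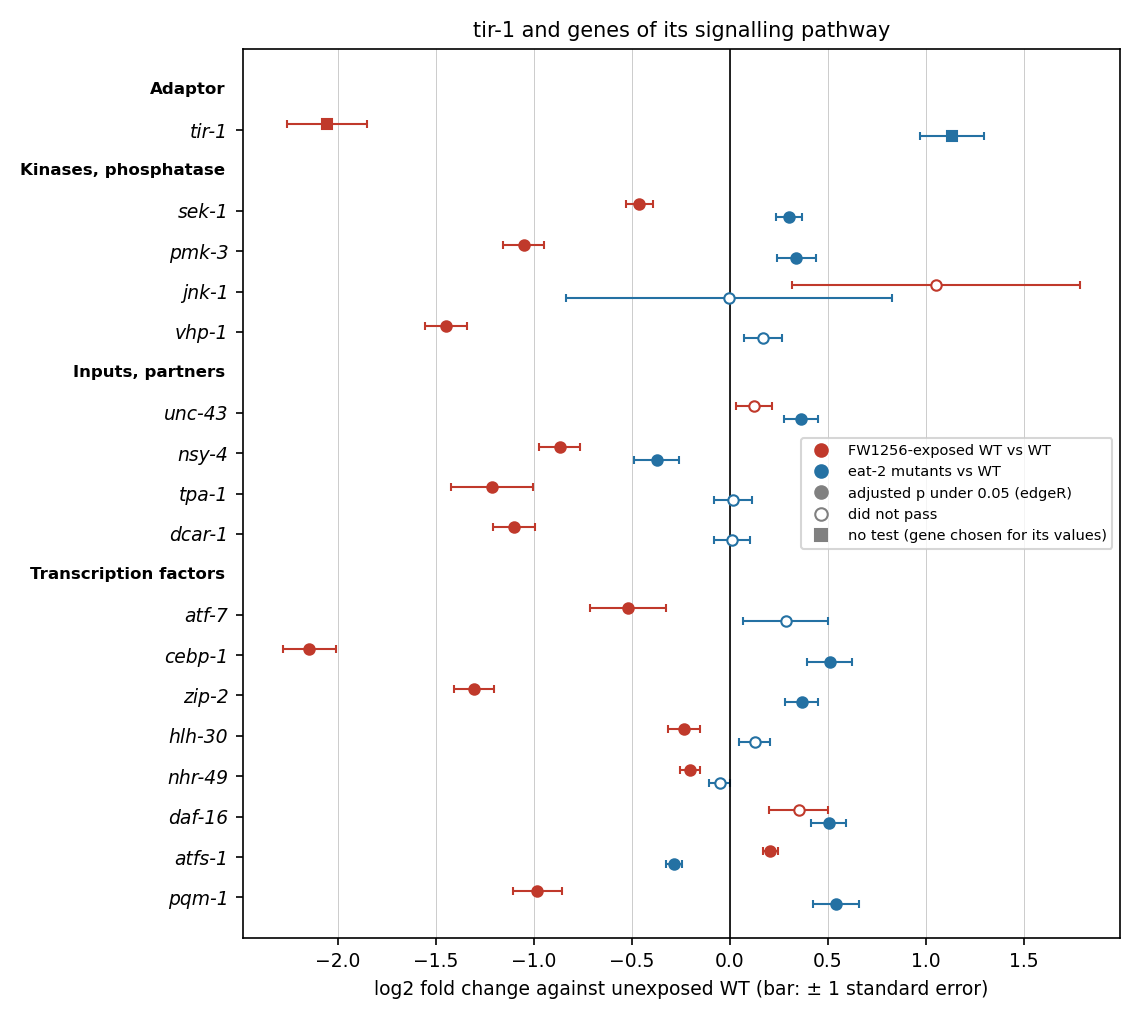
Log2 fold changes (points, with bars of 1 SE either way) of *tir-1* (squares, no test) and the named genes of signalling and transcription in FW1256-exposed over unexposed WT (red) and in *eat-2* mutants over WT (blue), filled where the adjusted p was under 0.05 and open elsewhere. *tir-1* is at -2.05 and 1.13, while *vhp-1* is at -1.45 and 0.17 and *cebp-1* at -2.14 and 0.51.

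Of 33 listed regulators and partners of TIR-1, 10 were measured and tested, of which 3 were lower and 7 were not called in FW1256-exposed WT, a share of lower genes near the 24.8% over all genes. In *eat-2* mutants 1 was higher, 1 lower and 8 were not called, beside 21.8% higher and 22.4% lower over all genes. *dcar-1*, an epidermal receptor for a tyrosine breakdown product that acts upstream of the cascade, was at 34.9 ± 3.42 CPM in FW1256-exposed WT, 74.9 ± 4.75 CPM in *eat-2* mutants and 74.3 ± 8.90 CPM in WT (SD, n = 4 each). It fell by 1.10 in FW1256-exposed WT (SE 0.11, edgeR adjusted p = 4.85e-05). *tpa-1*, a protein kinase C required for epidermal immune signalling, fell by 1.21 (SE 0.21, edgeR adjusted p = 0.00115), and *B0545.4* overlaps it on the opposite strand. *nsy-4*, a claudin-like membrane protein that acts upstream of NSY-1 in olfactory neurons, was lower in both groups than in WT, at -0.87 (edgeR adjusted p = 0.000166) in FW1256-exposed WT and -0.37 (edgeR adjusted p = 0.0248) in *eat-2* mutants. The second call was lost without WT replicate 3 (adjusted p = 0.0692), WT replicate 4 (adjusted p = 0.0535) or *eat-2* replicate 3 (adjusted p = 0.0698). *unc-43*, the kinase above TIR-1 in these neurons, was higher by 0.36 in *eat-2* mutants (SE 0.09, edgeR adjusted p = 0.0087) and at 0.12 in FW1256-exposed WT (edgeR adjusted p = 0.284), where it passed without WT replicate 4 (adjusted p = 0.0491). The per-library values of *unc-43* hold 32.4% of the authors' mean in the *eat-2* comparison, and its change there carries this limit.

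Among 31 listed transcription factors of immune and stress responses, 13 were tested. In FW1256-exposed WT 6 were lower, 1 was higher and 6 were not called, with a median log2 fold change of -0.19, beside 24.8% lower and 25.5% higher over all genes. In *eat-2* mutants 4 were higher, 1 was lower and 8 were not called, with a median of 0.13, beside 21.8% higher and 22.4% lower over all genes, so the number of higher factors was near that share. *cebp-1*, a bZIP factor of surveillance and stress responses, had 41.2, 47.9, 36.7 and 42.1 CPM in FW1256-exposed WT, 268, 238, 283 and 258 CPM in *eat-2* mutants, and 228, 158, 160 and 190 CPM in WT. All 3 groups were apart, in the order seen for *tir-1*, and the changes of *cebp-1* were -2.14 (SE 0.14, edgeR adjusted p = 5.55e-06) and 0.51 (SE 0.11, edgeR adjusted p = 0.00588). Over all genes, 22.5% lay wholly below WT with FW1256 and 20.9% wholly above WT in *eat-2* mutants. The per-library values of *cebp-1* hold 46.6% of the authors' mean in the FW1256 comparison and 97.3% in the *eat-2* comparison, and its changes carry this limit. *zip-2*, a bZIP factor that responds when translation is blocked by pathogens, averaged 470 ± 39.7 CPM in FW1256-exposed WT, 1481 ± 44.7 CPM in *eat-2* mutants and 1149 ± 155 CPM in WT (SD, n = 4 each). Its log2 fold changes were -1.30 (edgeR adjusted p = 1.47e-05) and 0.37 (edgeR adjusted p = 0.00737), with *dos-3* overlapping it on the opposite strand. *pqm-1*, a zinc finger factor, followed the same order with -0.98 (edgeR adjusted p = 0.00021) and 0.54 (edgeR adjusted p = 0.0049).

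*atfs-1*, the regulator of the mitochondrial unfolded protein response, went the opposite way, at 322 ± 6.51 CPM in FW1256-exposed WT, 227 ± 5.21 CPM in *eat-2* mutants and 277 ± 11.5 CPM in WT (SD, n = 4 each). It was higher by 0.21 in FW1256-exposed WT (edgeR adjusted p = 0.00182) and lower, at -0.29, in *eat-2* mutants (edgeR adjusted p = 0.000802). *nhr-49*, a nuclear hormone receptor of fat metabolism and stress, fell by 0.20 in FW1256-exposed WT (edgeR adjusted p = 0.00902) and was at -0.05 in *eat-2* mutants (edgeR adjusted p = 0.464). *daf-16*, the FOXO factor, was higher by 0.50 in *eat-2* mutants (edgeR adjusted p = 0.002) and at 0.35 in FW1256-exposed WT (edgeR adjusted p = 0.0755). In FW1256-exposed WT it passed without replicate 1 (adjusted p = 0.0301) or replicate 4 (adjusted p = 0.0478) of that group, with DESeq2, in 1 fit over all 3 groups and with the replicate block. The per-library values of *daf-16* hold 12.2% of the authors' mean in the *eat-2* comparison, and its change there carries this limit.

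*atf-7*, the factor on which PMK-1 acts, was called lower in FW1256-exposed WT by a small margin, at -0.52 (SE 0.19, edgeR adjusted p = 0.0495). This call was kept only without WT replicate 3 when libraries were left out in turn, and was lost without any other, with adjusted p-values between 0.0642 and 0.127. Another gene overlaps *atf-7* on the same strand, and its per-library values hold 6.09% of the authors' mean in the *eat-2* comparison, where it was at 0.29 (edgeR adjusted p = 0.311). *hlh-30*, the worm TFEB, was at -0.23 in FW1256-exposed WT (edgeR adjusted p = 0.0414), a call lost without any 1 of 5 libraries, which were FW1256-exposed replicates 1, 2 and 3 and WT replicates 1 and 4, with adjusted p-values between 0.0543 and 0.111.

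Because TIR-1 cleaves NAD+, genes that make or use NAD were listed, of which 9 of 25 were measured and tested. In FW1256-exposed WT 3 were lower and none was higher, where 24.8% of all genes were lower and 25.5% higher. In *eat-2* mutants 4 were lower and 1 was higher, where 22.4% of all genes were lower and 21.8% higher. Most of these differences were small. *tdo-2*, the first enzyme of tryptophan breakdown towards NAD, was at 41.8 ± 2.51 CPM in FW1256-exposed WT, 73.5 ± 5.57 CPM in *eat-2* mutants and 65.1 ± 5.93 CPM in WT (SD, n = 4 each), and fell by 0.65 in FW1256-exposed WT (edgeR adjusted p = 0.000197). *nadk-2*, a mitochondrial NAD kinase, fell by 0.20 in the same comparison (edgeR adjusted p = 0.00713). In *eat-2* mutants *umps-1*, an enzyme through which worms make NAD from quinolinic acid, fell by 0.32 (edgeR adjusted p = 0.000437), and *parp-2*, a poly(ADP-ribose) polymerase, fell by 0.23 (edgeR adjusted p = 0.00308).

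The remaining NAD calls depended on single libraries. The sirtuin *sir-2.1* was at -0.12 in *eat-2* mutants (edgeR adjusted p = 0.0223), and the call was lost without WT replicate 3, *eat-2* replicate 1 or *eat-2* replicate 3 (adjusted p = 0.0518 to 0.0738). The nicotinate enzyme *nprt-1* was at -0.11 (edgeR adjusted p = 0.0383), lost without any 1 library but WT replicate 1 (adjusted p = 0.0514 to 0.143). The nicotinamide methyltransferase *anmt-1* was at -0.60 in FW1256-exposed WT (edgeR adjusted p = 0.0206) and 0.49 in *eat-2* mutants (edgeR adjusted p = 0.0279). The first was lost without FW1256-exposed replicates 1 or 3 or WT replicate 1 (adjusted p = 0.0546 to 0.0619), the second without WT replicate 3 or *eat-2* replicates 1 or 3 (adjusted p = 0.0517 to 0.0799). All 3 genes overlap a coding gene on the opposite strand.

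On the output side, 12 of 53 listed infection response genes other than *irg-4* were measured and 11 tested. In FW1256-exposed WT 6 were lower, 1 was higher and 4 were not called, with a median log2 fold change of -0.35, and in *eat-2* mutants 7 were higher, none was lower and 4 were not called, with a median of 0.46. Over all genes 24.8% were lower with FW1256 and 21.8% higher in the mutants. *irg-8*, the other infection response gene of this name in the tables, had 894, 833, 995 and 807 CPM in FW1256-exposed WT, 609, 751, 528 and 492 CPM in *eat-2* mutants, and 445, 677, 691 and 503 CPM in WT. It was thus higher in every FW1256-exposed library than in any WT library, as were 25.6% of all genes. Its log2 fold change was 0.60 in FW1256-exposed WT (SE 0.13, edgeR adjusted p = 0.00445) and 0.04 in *eat-2* mutants (SE 0.17, edgeR adjusted p = 0.862). Of the 11, only *irg-8* was called higher in FW1256-exposed WT.

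*spp-18*, a saposin-like protein of the family that includes pore-forming antimicrobials, resembled *irg-4* in *eat-2* mutants. It had 83.5, 79.0, 95.7 and 84.0 CPM in FW1256-exposed WT, 371, 332, 328 and 291 CPM in *eat-2* mutants, and 91.0, 110, 62.4 and 71.5 CPM in WT. Its log2 fold change was 1.98 in *eat-2* mutants (SE 0.16, edgeR adjusted p = 7.53e-05) and 0.02 in FW1256-exposed WT (SE 0.16, edgeR adjusted p = 0.927). *clec-67*, a C-type lectin, averaged 46.6 ± 8.08 CPM in FW1256-exposed WT, 224 ± 34.5 CPM in *eat-2* mutants and 67.7 ± 13.95 CPM in WT (SD, n = 4 each). It rose by 1.73 in *eat-2* mutants (SE 0.16, edgeR adjusted p = 0.000111). In FW1256-exposed WT it was at -0.55 (edgeR adjusted p = 0.0186), a call lost without FW1256-exposed replicates 1, 2 or 4 or WT replicate 2 (adjusted p = 0.0517 to 0.0554). *asp-12*, an aspartyl protease, rose by 1.46 in *eat-2* mutants (SE 0.23, edgeR adjusted p = 0.00104) and was at -0.21 in FW1256-exposed WT (edgeR adjusted p = 0.213).

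Other effectors were lower in FW1256-exposed WT and higher in *eat-2* mutants than in WT, the order of *tir-1*. The lysozyme *lys-8* was at 499 ± 48.1 CPM in FW1256-exposed WT, 983 ± 39.6 CPM in *eat-2* mutants and 768 ± 79.2 CPM in WT (SD, n = 4 each), with log2 fold changes of -0.63 (edgeR adjusted p = 0.00021) and 0.36 (edgeR adjusted p = 0.00337). The caenopore *spp-1* had changes of -0.44 (edgeR adjusted p = 0.0068) and 0.70 (edgeR adjusted p = 0.00102), though a coding gene overlaps each of these loci on the opposite strand. *eol-1*, which encodes a relative of RNA decapping enzymes and is on the list of infection response genes, was at 0.752 ± 0.379 CPM in FW1256-exposed WT, 53.2 ± 6.05 CPM in *eat-2* mutants and 27.7 ± 9.08 CPM in WT (SD, n = 4 each). Its changes were -5.22 (SE 0.36, edgeR adjusted p = 7.75e-06) and 0.94 (SE 0.20, edgeR adjusted p = 0.00483). In FW1256-exposed WT *eol-1* was close to 0, at 0.322 to 1.13 CPM, so the size of its fall rests on few counts. Its per-library values hold 34.1% of the authors' mean in the FW1256 comparison. The lysozyme *lys-1* showed the same signs, at -0.35 (edgeR adjusted p = 0.0267) and 0.39 (edgeR adjusted p = 0.0406). Both of its calls depended on single libraries: the first was lost without FW1256-exposed replicates 1, 2 or 4 or WT replicates 2 or 3 (adjusted p = 0.0572 to 0.0796), and the second without WT replicates 1, 3 or 4 or *eat-2* replicates 1 or 2 (adjusted p = 0.0611 to 0.101). *thn-2*, a thaumatin-like protein, fell by 1.33 in FW1256-exposed WT (edgeR adjusted p = 0.000458) and was at -0.35 in *eat-2* mutants (edgeR adjusted p = 0.212), where it passed without WT replicate 4 (adjusted p = 0.0159).

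*irg-4* belongs to the CUB-like family, of which 6 of 28 other listed genes were tested. In FW1256-exposed WT 3 were lower and none was higher, beside 24.8% of all genes lower, and *irg-4* itself was at 0.66. In *eat-2* mutants 1 was higher, a share near the 21.8% of all genes, and 5 were not called, with a median log2 fold change of 0.10, beside 2.22 for *irg-4*. *C17H12.8* had 332, 289, 461 and 307 CPM in FW1256-exposed WT, 1286, 1461, 1291 and 1311 CPM in *eat-2* mutants, and 1039, 1264, 1282 and 1379 CPM in WT. It fell by 1.85 in FW1256-exposed WT (SE 0.15, edgeR adjusted p = 1.49e-05) and was at 0.11 in *eat-2* mutants (edgeR adjusted p = 0.319). Every exposed library lay below every WT library, as in 22.5% of all genes. *F35E12.6* fell by 0.31 in FW1256-exposed WT (edgeR adjusted p = 0.00154), and *ZK896.5* rose by 0.60 in *eat-2* mutants (edgeR adjusted p = 0.0158). *K08D8.4* was at -0.50 in FW1256-exposed WT (edgeR adjusted p = 0.0406), a call lost without FW1256-exposed replicates 2 or 3 or WT replicates 2, 3 or 4 (adjusted p = 0.0696 to 0.0866) and with the replicate block (adjusted p = 0.0621). In *eat-2* mutants it was at -0.18 (edgeR adjusted p = 0.504) and at -0.44 without *eat-2* replicate 2 (adjusted p = 0.0319).

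Only 2 of 22 listed antimicrobial peptides of the epidermis, where TIR-1 signalling also operates, were measured, and they moved in opposite directions in FW1256-exposed WT. Over all genes 25.5% were higher and 24.8% lower in that comparison, so 2 genes say little about the list. *nlp-24*, a neuropeptide-like protein, was at 185 ± 20.7 CPM in FW1256-exposed WT, 79.9 ± 22.2 CPM in *eat-2* mutants and 75.0 ± 13.7 CPM in WT (SD, n = 4 each), and rose by 1.29 in FW1256-exposed WT (edgeR adjusted p = 4.28e-05), with a coding gene overlapping it on the opposite strand. *cnc-2*, a caenacin peptide, had 41.1, 36.7, 31.1 and 18.9 CPM in FW1256-exposed WT, 202, 166, 141 and 129 CPM in *eat-2* mutants, and 132, 208, 160 and 74.0 CPM in WT. It fell by 2.17 in FW1256-exposed WT (SE 0.32, edgeR adjusted p = 0.000442). In *eat-2* mutants neither was called, where 44.2% of all genes were.

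**Figure D3:**
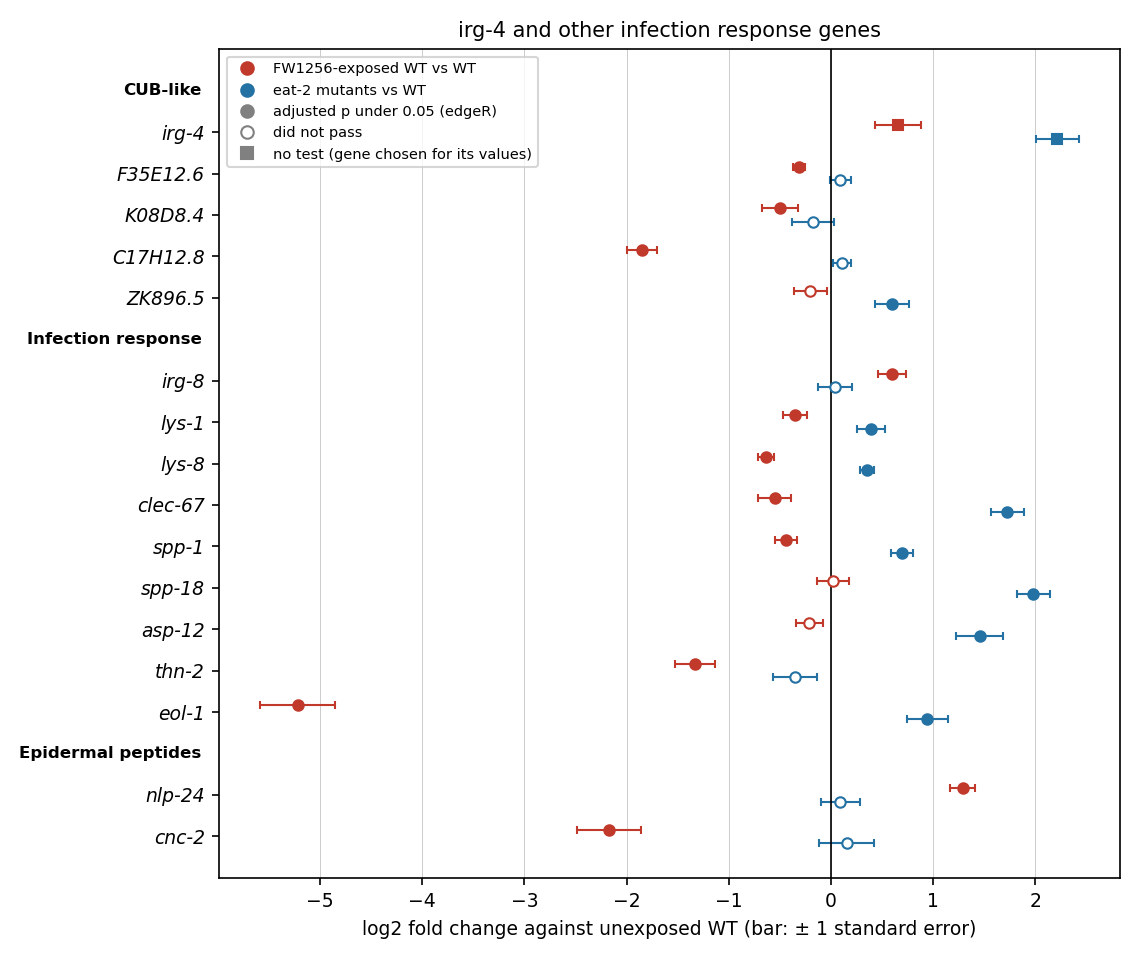
Log2 fold changes (points, with bars of 1 SE either way) of *irg-4* (squares, no test) and the named CUB-like, infection response and epidermal peptide genes in FW1256-exposed over unexposed WT (red) and in *eat-2* mutants over WT (blue), filled where the adjusted p was under 0.05 and open elsewhere. *irg-4*, *spp-18* and *clec-67* lie at 2.22, 1.98 and 1.73 in *eat-2* mutants, and *eol-1* and *cnc-2* lie at -5.22 and -2.17 in FW1256-exposed WT.

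The genes whose pattern over the 12 libraries was most like that of each gene were found by the root mean square difference of mean-centred log2 CPM, a description that uses the same libraries and says nothing of shared control. For *tir-1* they were *try-5* (0.296), a serine protease of seminal fluid, *mdt-26* (0.300), a subunit of the Mediator complex, *T05A8.1* (0.304), *fkh-8* (0.305), a forkhead transcription factor, and the pseudogene *F07G11.6* (0.340). *mdt-26* had 14.7 ± 2.02 CPM in FW1256-exposed WT, 85.7 ± 15.95 CPM in *eat-2* mutants and 48.6 ± 11.404 CPM in WT (SD, n = 4 each). Its per-library values hold 51.9% of the authors' mean in the FW1256 comparison and 10.9% in the *eat-2* comparison. *T05A8.1* and *F07G11.6* had few counts, with mean levels of at most 1.52 and 2.05 CPM in any group. For *irg-4* the nearest were *ZK856.5* (0.393), *spp-18* (0.420), *endu-2* (0.423), an endoribonuclease, *grd-1* (0.435), a hedgehog-related protein, and *txt-14* (0.435). *endu-2* had 90.1 ± 10.1 CPM in FW1256-exposed WT, 190 ± 15.2 CPM in *eat-2* mutants and 64.5 ± 10.2 CPM in WT (SD, n = 4 each). *tir-1* and *irg-4* differed by 1.21 on this measure, more than either differed from its nearest genes named above. Among the genes that passed the count filter over the 3 groups, *irg-4* ranked 1230 by nearness to *tir-1*, and *tir-1* ranked 3460 by nearness to *irg-4*. How unusual this is for a pair of genes was not tested.

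**Figure D4:**
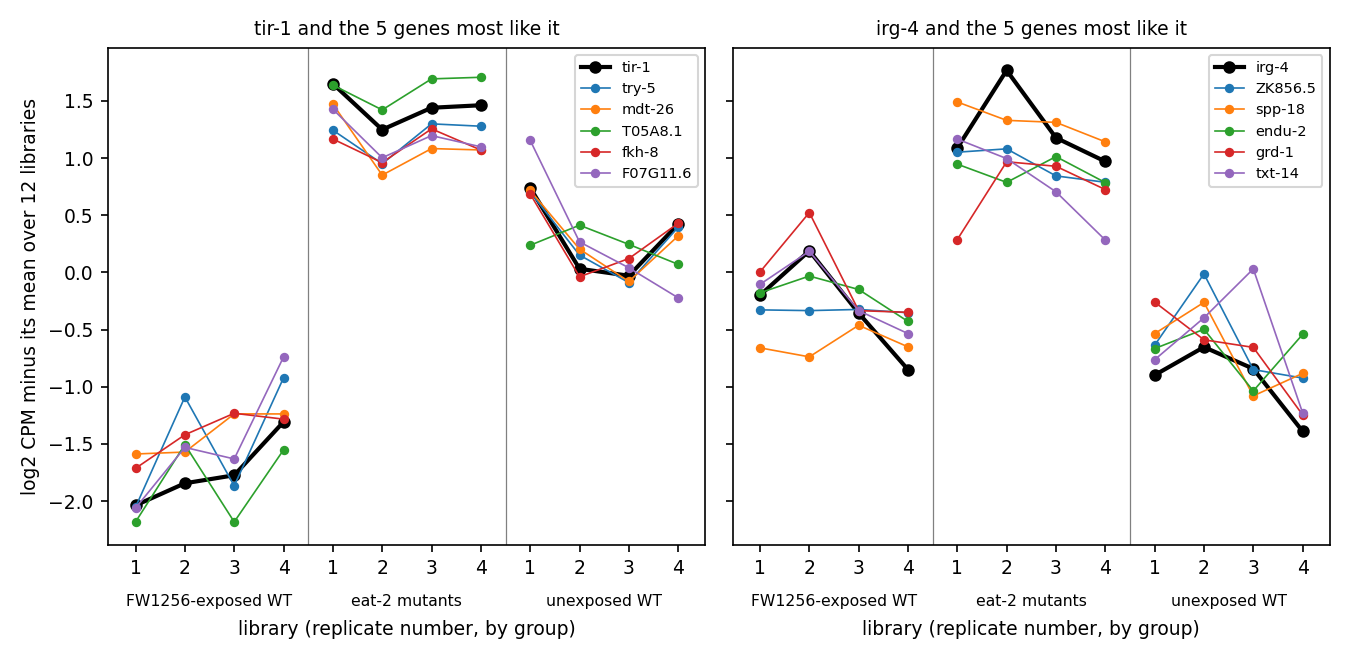
Log2 CPM minus its mean over the 12 libraries, by library and group, for *tir-1* (left) and *irg-4* (right), each with the 5 genes of most similar pattern; lines join the libraries of a group, whose order has no meaning. The genes beside *tir-1* lie low in FW1256-exposed WT and high in *eat-2* mutants, and those beside *irg-4* lie highest on average in *eat-2* mutants.

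Few neighbours of either gene were in the tables. Within 20 kb of *tir-1*, 4 of 12 annotated genes were measured. *rpl-3*, a ribosomal protein gene that lies next to *tir-1*, was at 0.23 in FW1256-exposed WT (edgeR adjusted p = 0.0139) and -0.05 in *eat-2* mutants (edgeR adjusted p = 0.637), *acs-19*, an acyl-CoA synthetase, was at -0.03 (edgeR adjusted p = 0.667) and -0.41 (edgeR adjusted p = 0.00143), and *ccdc-47* was at -0.06 (edgeR adjusted p = 0.121) and -0.09 (edgeR adjusted p = 0.0718). Within 20 kb of *irg-4*, 3 of 29 annotated genes were measured, and *C25G4.2* was at -0.86 in FW1256-exposed WT (edgeR adjusted p = 7.45e-06) and 0.10 in *eat-2* mutants (edgeR adjusted p = 0.148). *ugt-65*, a glucuronosyltransferase gene overlapped by a coding gene on the opposite strand, was at 1.68 in FW1256-exposed WT (edgeR adjusted p = 0.0294) and 0.55 in *eat-2* mutants (edgeR adjusted p = 0.445), and *C25G4.7* was at -1.38 (edgeR adjusted p = 0.0086) and -1.23 (edgeR adjusted p = 0.0181), both with few counts. The last of the 4 at *tir-1*, *C36A4.12*, is a pseudogene and was called in neither comparison with WT.

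Markers of the tissues in which *tir-1* and *irg-4* act also differed between groups. Of 16 listed intestinal markers 6 were measured, and their summed level was 27598 to 32004 CPM in FW1256-exposed WT, 34043 to 38700 CPM in *eat-2* mutants and 27592 to 30471 CPM in WT. Against WT, 4 of the 6 were higher in the exposed animals and 5 in the mutants, where 25.5% and 21.8% of all genes were higher and 24.8% and 22.4% lower. Of the 5 measured neuronal markers, *egl-3*, an enzyme of neuropeptide processing, was listed at 0 in all 12 libraries and 3 were tested, of which 2 were higher in the exposed animals and 3 in the mutants. They summed to 150 to 169 CPM in FW1256-exposed WT, 181 to 200 CPM in *eat-2* mutants and 126 to 132 CPM in WT. The 5 epidermal markers, of which 1 was higher and 1 lower in the exposed animals and 1 lower in the mutants, had a median log2 fold change of -1.05 in the exposed animals and 0.15 in the mutants, and summed to 128 to 146 CPM in FW1256-exposed WT, 101 to 154 CPM in *eat-2* mutants and 121 to 257 CPM in WT. The 9 markers of muscle and pharynx summed to 5152 to 5707 CPM in FW1256-exposed WT, 3597 to 4614 CPM in *eat-2* mutants and 2240 to 2740 CPM in WT, and the 8 of germline and eggs to 12756 to 13246 CPM, 8620 to 9261 CPM and 10899 to 12102 CPM in the same groups. Of the muscle and pharynx markers 8 were higher in the exposed animals and 9 in the mutants, and of the germline and egg markers 3 were higher in the exposed animals and 8 lower in the mutants. The part of tissue make-up in these results was not tested.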

How the data were processed

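RNA-seq of whole *C. elegans* was analysed in 12 libraries. The authors mapped reads to the WBcel235 transcriptome with kallisto 0.46.0 and used tximport to sum transcripts per gene (length-scaled TPM). The deposited per-library values are estimated counts per gene, without normalization between libraries. From the authors' tables of their own comparisons (DESeq2 1.24.0) only the mean normalized count signal deposited as baseMean was used, and their fold changes and p-values were not. Estimated counts were rounded, and the quasi-likelihood test of edgeR 4.0.16 (R 4.3.3) was run after filterByExpr and TMM in a separate fit for each pair of groups, with Benjamini-Hochberg adjustment over all genes tested and a threshold of 0.05. The standard error is the log2 fold change divided by the root of its F statistic. The script was tested on simulated data. CPM were scaled to the totals of the 5272 listed genes with TMM over all 12 libraries, and log2 CPM used a prior count of 2. Depth was known only for these genes.

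Groups and replicate numbers came from the sample titles. The labels give the same treatment text, exposure to FW1256, for all 12 samples, so the mutant and WT libraries are called unexposed from their titles, which name no FW1256, and from the study's description of the groups. The 2 genes, the lists around them and the tests were chosen with earlier results of these data known. Of the lists, every measured gene of the p38 module and every infection response gene named irg was named, and of the others each gene called in a comparison with WT with a mean of at least 100 estimated counts. Marker genes were summed and their calls counted. Annotation was taken from Ensembl for WBcel235, in which 5271 listed genes were found. Alternatives were DESeq2 1.42.0, its size factors or library size in place of TMM, no filter on low counts, 1 fit over all 3 groups, a replicate block, a 2-fold limit and leaving out each library.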

Additional observations from a re-analysis of the deposited data

Results flagged for a closer look

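In 125 groups of 4 libraries tested over the named genes, 7 had a highest or lowest library far from the other 3, and chance alone flags about 1 in 20 groups. *dlk-1*, too low to be tested, was at 6.55 CPM in FW1256-exposed replicate 3 and at 0.238 CPM in *eat-2* replicate 1, with the other libraries of both groups at 0. FW1256-exposed replicate 3 was also high for *lys-8*, at 571 CPM with the others between 471 and 478, and for *clec-67*, at 58.6 CPM with the others between 41.5 and 43.8. *eat-2* replicate 2 was low for *eol-1*, at 44.2 CPM with the others between 55.3 and 56.7, and high for *C17H12.8*, at 1461 CPM with the others between 1286 and 1311. WT replicate 1 was low for *K08D8.4*, at 32.1 CPM with the others between 40.1 and 41.3. No group of *tir-1* or *irg-4* was among them.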

How the results depend on the processing

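All 84 values of *tir-1* and *irg-4* under the alternatives kept their sign and moved by less than 1 SD of the replicates. Leaving out a single library can hardly move a value by more than that, so this limit gives no separate support. With a 2-fold limit 407 genes (103 higher, 304 lower) were called in FW1256-exposed over unexposed WT, 196 (22 of them lower) in *eat-2* mutants over WT and 610 (45 higher, 565 lower) in FW1256-exposed WT over *eat-2* mutants. Without single libraries the counts were 1583 to 1791, 1357 to 1631 and 2425 to 2550. Same-numbered replicates did not deviate together in every pair (r from -0.04 to 0.154, -0.024 to 0.238 and -0.007 to 0.064), so the number was not taken as a pairing, and with it as a replicate block 1767, 1821 and 2593 genes were called. With the block, *tir-1* was at -2.04 and 1.16 and *irg-4* at 0.64 and 2.21 against WT. Replicate 4 nonetheless had its highest r with replicate 4 of the other group in every comparison. The same held for replicate 2 in both comparisons with WT. A batch shared by these numbers was not tested.

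Of 50 calls of named genes 38 held under every alternative, and the 12 others were lost under at least 1. Of 26 values that were not called, 8 passed under at least 1. The sign turned for 10 values, none of them called. In *eat-2* mutants over WT these were *jnk-1* (0.016 with library size, -0.40 to 0.41 without single libraries), *tpa-1* (-0.0012 without the filter, -0.030 to 0.067), *dcar-1* (-0.0028 without the filter, -0.033 to 0.078), *irg-8* (-0.10 to 0.14), *F35E12.6* (-0.038 to 0.17), *nlp-24* (-0.13 to 0.24) and *cnc-2* (-0.063 to 0.40). In FW1256-exposed over unexposed WT they were *sir-2.1* (0.015 without the filter, 0.0095 in 1 fit over all 3 groups, -0.018 to 0.021), *parp-2* (-0.0075 with library size) and *spp-18* (-0.037 with library size, -0.10 to 0.18). Counts of called list genes moved by over 1.5 times in *eat-2* mutants for the p38 module (1 without WT or *eat-2* replicate 3), the regulators (4 in 1 fit over all 3 groups, 1 without WT replicate 4 or *eat-2* replicate 3), the NAD genes (3 with library size, 2 without WT replicate 3 or *eat-2* replicates 1 or 3) and the CUB-like genes (2 without *eat-2* replicate 2), and in FW1256-exposed WT for the NAD genes (5 with library size). The causes were not tested. Depth limits low genes such as *jnk-1*, and genes outside the tables were not analysed here.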
